A study of Mus musculus with 17 samples.

Results

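The 9 genes described here encode transcription factors of the crypt base and of the secretory lineages of the small intestine: Sox4, Sox9 and Sox12 of the Sox family, the ETS factor Spdef, the zinc-finger repressor Gfi1, the forkhead factors Foxa1, Foxa2 and Foxa3, and the zinc-finger factor Klf4. They were chosen by symbol, by a rule with no threshold on their values, and are 9 of the 26422 genes listed in the count tables of the series. All 9 were listed in all 17 libraries, and all passed the filter on low counts in the tests over whole libraries.

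Organoids of wild-type C57BL/6 mouse small intestine were profiled by Seq-Well S3, a microwell method that reads the 3′ ends of single-cell transcripts and counts unique molecular identifiers (UMIs), 1 per captured molecule. The starting organoids (day 0, 2 libraries) had been held in ENR+CV medium, which contains EGF, Noggin, R-spondin 1, the GSK3 inhibitor CHIR99021 and valproic acid and enriches for stem cells. The other organoids were moved to ENR+CD medium, in which the Notch pathway inhibitor DAPT takes the place of valproic acid, for 0.25, 1, 2, 3, 4 or 6 days, either without further treatment (control, 7 libraries) or with 160 nM KPT-330, an inhibitor of the nuclear exporter XPO1 (8 libraries). All groups received EGF, Noggin, R-spondin 1 and CHIR99021, no control lacked DAPT after day 0, and each library was a pool of many organoids, so animals cannot be told apart. Most days had 1 library per condition, and day 3 with KPT-330 and day 6 in both conditions had 2.

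In the intestinal crypt, Notch signalling holds progenitors out of the secretory lineages by repressing Atoh1, the factor that opens secretory fate. Downstream of Atoh1, Gfi1 and Spdef are known for the goblet and Paneth branches and Neurog3 for the enteroendocrine branch. Foxa1 and Foxa2 are pioneer factors known in enteroendocrine and goblet cells, Sox9 is required for Paneth cell formation and is a Wnt target of the crypt base, Sox4 is a progenitor factor, and Klf4 is known for goblet cell maturation and for arrest of proliferation.

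The 19877 cells that the authors kept were used, 531 to 1547 per library, with 3458887 to 12433109 UMIs per library and a median of 4710 UMIs per cell. Summed over all libraries, Sox4 had 68497 UMIs, Sox9 20295, Klf4 20179, Spdef 10234, Foxa3 8920, Foxa1 6444, Foxa2 3139, Sox12 1865 and Gfi1 1370, so that the values of Sox12 and Gfi1 carry the widest counting error. Levels below are UMIs of a gene per 10000 UMIs of all genes in the same cells, and they are compared within a gene only. The first day 0 library and the 4 libraries of days 0.25 and 1 listed 19823 to 21652 genes against 15576 to 17849 in the other 12. The day 0 libraries fell on both sides (21020 and 16266), so this difference also occurs within 1 time point. For days 0.25 and 1 against the later days it cannot be told apart from time. Epithelial genes (a list of 5) summed to 32.6 to 44.9 UMIs per 10000 in every library. Tuft cell markers (8 genes) summed to 0.0219 to 0.0756 per 10000 and stromal markers (6 genes) to 0.00149 to 0.0338. Immune markers summed to 0.0245 to 0.703, of which Lyz2 gave 2277 UMIs over the series while Ptprc, Cd3e and Cd79a had 3, 4 and 2 UMIs and Tyrobp had 0. Barcode sequences shared between libraries concerned 28 kept cells, and leaving them out changed no call over whole libraries.

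Sequences before the start site were taken for the members that passed the test of KPT-330 over whole libraries. They are the 250 bases before the RefSeq start site in GRCm38.p6 (the mm10 assembly). They are written 5′ to 3′ on the strand of the gene, with forkhead matches in capitals. Sox12, Spdef and Klf4 each hold a match to the forkhead motif bound by the Foxa family, while Sox4 and Foxa3 do not. With KPT-330 Sox12 fell while Spdef and Klf4 rose, and Foxa1, which also holds a match, was not called. A link between this motif and the response to KPT-330 was not tested. Sox12 lies at chr2:152398047-152398296, Spdef at chr17:27728952-27729201, Klf4 at chr4:55532476-55532725, Sox4 at chr13:28953700-28953949 and Foxa3 at chr7:19023540-19023789, all on the minus strand.
Sox12: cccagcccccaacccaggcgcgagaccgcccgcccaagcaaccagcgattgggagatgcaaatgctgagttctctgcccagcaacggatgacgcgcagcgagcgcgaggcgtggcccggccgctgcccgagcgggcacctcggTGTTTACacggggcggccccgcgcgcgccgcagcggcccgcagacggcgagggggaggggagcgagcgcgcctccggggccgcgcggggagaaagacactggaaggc
Spdef: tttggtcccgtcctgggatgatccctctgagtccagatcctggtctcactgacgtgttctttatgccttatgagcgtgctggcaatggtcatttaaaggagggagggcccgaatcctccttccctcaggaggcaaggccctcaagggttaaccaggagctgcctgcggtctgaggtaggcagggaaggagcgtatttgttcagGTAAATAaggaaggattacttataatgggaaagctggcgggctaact
Klf4: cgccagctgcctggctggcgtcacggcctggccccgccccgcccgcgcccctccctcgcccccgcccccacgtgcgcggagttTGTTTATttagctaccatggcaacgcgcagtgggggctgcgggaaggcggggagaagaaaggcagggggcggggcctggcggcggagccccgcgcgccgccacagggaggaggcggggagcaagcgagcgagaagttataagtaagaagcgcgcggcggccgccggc
Sox4: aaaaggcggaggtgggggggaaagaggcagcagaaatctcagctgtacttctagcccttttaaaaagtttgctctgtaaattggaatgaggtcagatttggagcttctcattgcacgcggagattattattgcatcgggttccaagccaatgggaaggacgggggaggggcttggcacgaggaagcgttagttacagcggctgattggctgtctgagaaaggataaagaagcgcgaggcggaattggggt
Foxa3: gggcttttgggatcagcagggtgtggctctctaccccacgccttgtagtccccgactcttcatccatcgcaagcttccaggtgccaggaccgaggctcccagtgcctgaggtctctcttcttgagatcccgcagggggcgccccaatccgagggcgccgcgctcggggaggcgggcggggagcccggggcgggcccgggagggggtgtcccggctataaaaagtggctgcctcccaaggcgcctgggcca

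The forkhead motif was searched on both strands as TGTTTAC, or with its second base changed as TATTTAC, or with its last base changed as TGTTTAT. It was found in 4 of 11 start-site windows of 8 members (36.4%, in Sox12, Spdef, Klf4 and Foxa1) and in 9.45% of all 32851 windows of this length. A SOX motif (ACAATG or AACAAT) was found in 0 of the 11 windows and in 16.2% of all, an Atoh1 E-box (CAGCTG or CAGATG) in Klf4 and Sox4 and in 25.5% of all, the RBPJ motif of the Notch pathway (TGGGAA) in Sox4 and Spdef and in 21.6% of all, and a KLF motif (GGGCGG or GGGTGG) in 7 of 11 windows and 48.8% of all. These matches describe letters in these windows, and binding was not measured. No window of Sox9 was used.

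Over the move from ENR+CV to ENR+CD, 8 of the 9 members changed with day, and Spdef and Gfi1 moved furthest. In the fit over all 17 libraries, with a term for treatment and with treated and control libraries sharing the day terms, 62.3% of the 12971 genes tested changed with day (edgeR's quasi-likelihood test, Benjamini-Hochberg adjusted p under 0.05), so a member called here is not unusual. From day 0 to day 6, 7 of 9 members rose and 0 fell, against 25.1% of all genes called higher and 25.9% called lower, and the median log2 fold change of the members was 1.01 against −0.00 for all genes. From day 0 to day 1, 5 of 9 rose, against 5.28% of all genes called higher in that contrast. For the mean of days 2 to 4 against day 0, 7 of 9 rose, against 24.6% of all genes, and from day 1 to day 2, 3 of 9 (Sox9, Spdef and Gfi1), against 4.9%.

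Spdef (ENSMUSG00000024215, chr17:27714352-27728955, minus strand) matures goblet and Paneth cells. Its level was 0.0759 and 0.147 in the day 0 libraries, 0.149 in controls at day 0.25, 0.603 at day 1, 0.978 at day 2, 0.916 at day 3, 1.32 at day 4 and 0.981 and 1.14 at day 6. The control libraries of days 1 to 6 were all above both day 0 libraries. The fitted log2 fold change was 2.27 ± 0.22 (SE) at day 1 against day 0 and 3.45 ± 0.21 at day 6, a 10.96-fold rise (adjusted p = 1.72e-08), with a further rise of 0.87 ± 0.19 from day 1 to day 2 (adjusted p = 0.0141).

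Gfi1 (ENSMUSG00000029275, chr5:107716657-107726036, minus strand) acts after Atoh1 and holds back enteroendocrine fate. It was near the detection limit at the start, with 6 and 26 UMIs in the day 0 libraries, levels of 0.0134 and 0.0360, and 16 UMIs in the control of day 0.25, a level of 0.0200. The control level was then 0.0835 at day 1, 0.217 at day 2, 0.182 at day 3, 0.192 at day 4 and 0.109 and 0.156 at day 6. The highest control was that of day 2, with no test of day 2 against day 6. The rise was 2.91 ± 0.30 on the log2 scale for the mean of days 2 to 4 against day 0 (adjusted p = 2.25e-06) and 2.33 ± 0.31 for day 6.

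Klf4 (ENSMUSG00000003032, chr4:55527143-55532466, minus strand) had levels of 0.417 and 0.912 at day 0 and, in controls, of 0.554 at day 0.25, 0.945 at day 1, 1.59 at day 2, 1.63 at day 3, 2.22 at day 4 and 1.83 and 1.54 at day 6. All control libraries from day 1 on were above both day 0 libraries. It rose 3.00-fold in days 2 to 4 against day 0 (log2 1.58 ± 0.26, adjusted p = 0.000158), while at day 1 its log2 fold change was 0.53 ± 0.30 (adjusted p = 0.27).

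Of the forkhead genes, Foxa3 (ENSMUSG00000040891, chr7:19013284-19023538, minus strand) rose most, with levels of 0.321 and 0.338 at day 0, 0.460 at day 0.25, 0.812 at day 1 and 0.764 to 0.924 in the 5 later controls. Its log2 fold change was 1.13 ± 0.21 at day 1 and 1.56 ± 0.19 at day 6 (adjusted p = 1.11e-05). Foxa2 (ENSMUSG00000037025, chr2:148042877-148046969, minus strand) was at 0.127 and 0.222 at day 0 and at 0.234 to 0.366 in all controls, and rose by 0.93 ± 0.21 at day 1 and 0.84 ± 0.18 at day 6. Foxa1 (ENSMUSG00000035451, chr12:57540628-57546916, minus strand) moved least, between 0.447 and 0.753 over all 17 libraries, with day 0 at 0.511 and 0.542. Its day 6 rise was 0.43 ± 0.12 (adjusted p = 0.00702), and the call over all days was lost when only untreated libraries were used (adjusted p = 0.257).

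The Sox genes followed different courses. Sox4 (ENSMUSG00000076431, chr13:28948919-28953713, minus strand) was at 3.25 and 4.48 at day 0, 6.63 at day 0.25 and 12.04 at day 1, and then at 8.22, 6.58 and 8.48 on days 2, 3 and 4 and at 6.08 and 5.89 on day 6 in controls. It rose 3.73-fold at day 1 (log2 1.90 ± 0.33, adjusted p = 0.00328), and the day 6 value of 0.54 ± 0.29 did not pass the test (adjusted p = 0.127). Without the first day 0 library and days 0.25 and 1 its call over all days was lost (adjusted p = 0.0629).

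Sox9 (ENSMUSG00000000567, chr11:112782224-112787760, plus strand) stayed between 0.896 and 1.25 in the day 0 libraries and the controls of days 0.25 and 1, and was 2.07, 2.08 and 2.93 in the controls of days 2, 3 and 4 and 2.06 and 1.98 at day 6. The step from day 1 to day 2 was 0.83 ± 0.19 on the log2 scale (adjusted p = 0.0173), with day 1 against day 0 at 0.13 ± 0.20. Sox12 (ENSMUSG00000051817, chr2:152393611-152398063, minus strand) had day 0 levels of 0.138 and 0.287, which span its control levels of 0.170 to 0.292 on all but the highest day. It was the 1 member with no call over days (adjusted p = 0.221), and its sign at day 6 depended on the day 0 libraries (0.10 ± 0.27 with both, −0.26 without the first and 0.62 without the second).

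**Figure D1:**
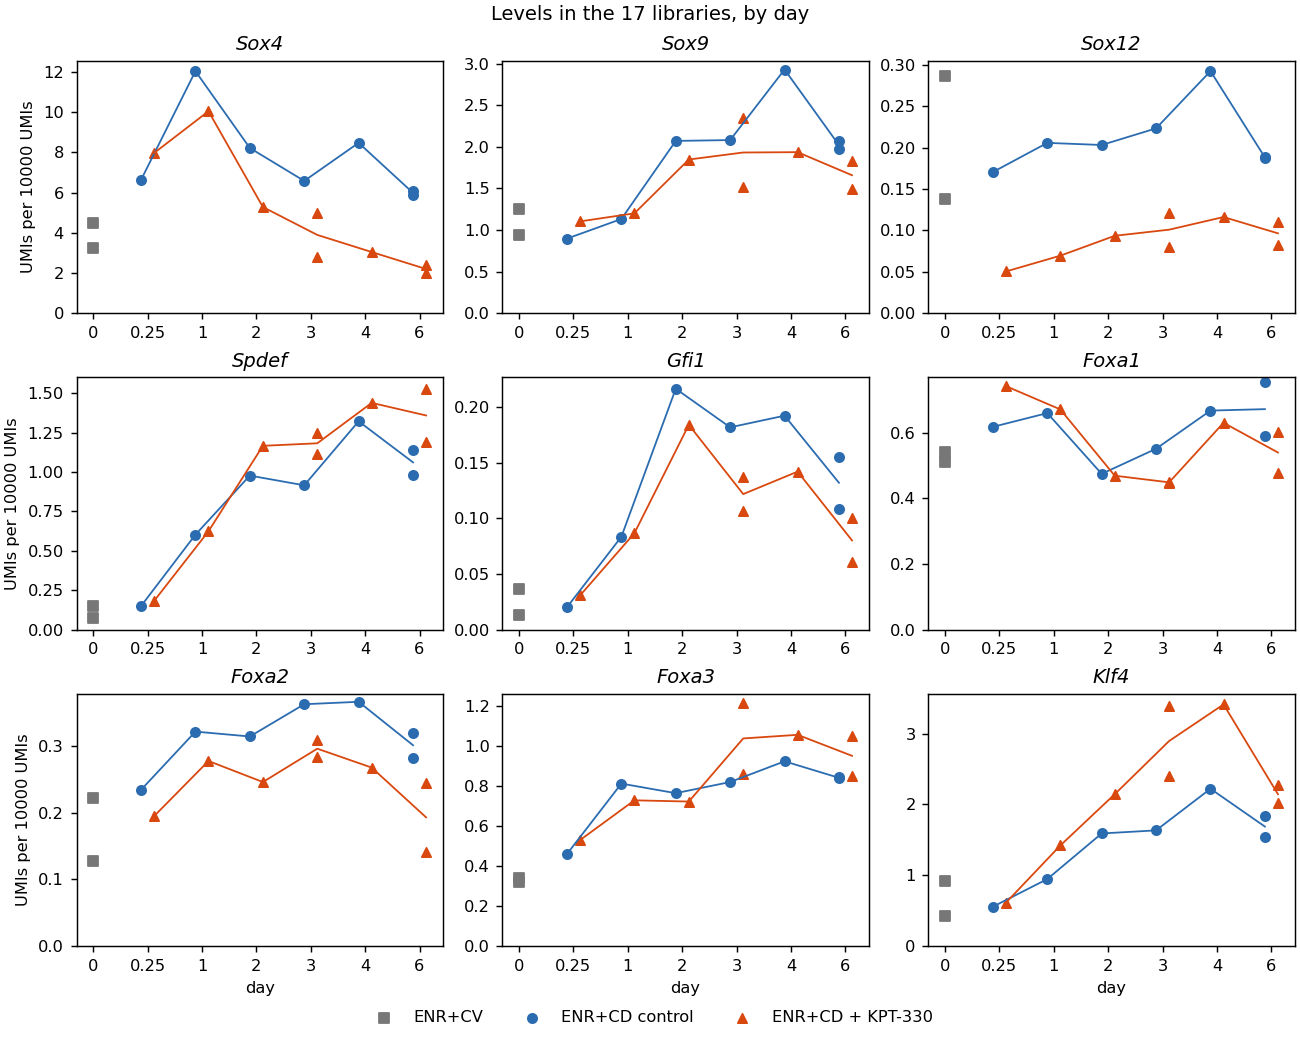
Levels of the 9 genes (vertical axis, UMIs per 10000 UMIs of the library) by day (horizontal axis, evenly spaced) in the 2 ENR+CV, 7 control and 8 KPT-330 libraries. Each symbol is 1 library and lines join the means of a day; Sox12 symbols with KPT-330 (0.0503 to 0.121) all lie below the controls (0.170 to 0.292), and Sox4 with KPT-330 separates downward from the controls from day 2 on.

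With KPT-330, 5 of the 9 members changed over the 15 libraries of days 0.25 to 6: Spdef, Klf4 and Foxa3 rose, and Sox12 and Sox4 fell. In this fit, with day as a block, 28.6% of the 12812 genes tested were called, 14.4% higher and 14.2% lower, and the members' median log2 fold change was 0.12 against −0.00 for all genes. Cells were summed over each library, so that fewer cells of a type and less RNA of the gene per cell cannot be told apart in these values. Scaling mattered: with library totals in place of TMM factors the median of all genes moved to −0.27 and 8.75% of the calls were higher instead of 50.3%. The 20 most abundant genes held 49.6% and 40.7% of UMIs in the day 6 KPT-330 libraries and 34.2% and 32.9% in the day 6 controls. Under library totals Sox12, Sox4, Spdef and Klf4 kept their direction and call, Foxa3 lost its call (0.13, adjusted p = 0.285), Foxa2 was called lower (−0.40, adjusted p = 0.0146), and the uncalled values of Sox9 and Foxa1 turned from 0.12 and 0.16 to −0.15 and −0.11.

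Sox12, which belongs with Sox4 to the SoxC group, gave the clearest separation among the members. With KPT-330 its level was 0.0503 at day 0.25, 0.0694 at day 1, 0.0934 at day 2, 0.121 and 0.0805 at day 3, 0.116 at day 4 and 0.0828 and 0.110 at day 6. The controls of the same days were 0.170, 0.206, 0.203, 0.223, 0.292 and, at day 6, 0.189 and 0.187. All 8 KPT-330 libraries lay below all 7 controls, from day 0.25 onward, on 23 to 109 UMIs per KPT-330 library. These levels are per library total, a scale on which the median log2 fold change of all genes was −0.27. On that scale 4900 of the 12812 genes tested were called lower with KPT-330 and 470 higher. The share of all genes that separate in this way is not given here. The fitted fall was 1.94-fold (log2 −0.96 ± 0.15, adjusted p = 0.000786) and held in all alternatives of this comparison.

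Sox4 had levels with KPT-330 of 7.97 at day 0.25, 10.05 at day 1, 5.28 at day 2, 4.98 and 2.81 at day 3, 3.04 at day 4 and 2.02 and 2.38 at day 6. Against the controls given above, the KPT-330 library was higher at day 0.25 by 0.26 on the log2 scale and lower at each later day, by 0.26 at day 1 and by 1.48 and 1.45 at days 4 and 6. The shared effect was a 1.46-fold fall (log2 −0.55 ± 0.17, adjusted p = 0.0284). It was not called without the first or the second day 6 control (adjusted p = 0.0521 and 0.0544), without the first day 6 KPT-330 library (0.0609), without day 4 (0.0860) or without day 6 (0.175).

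Spdef was higher with KPT-330 on all 6 days, at 0.182, 0.624 and 1.17 on days 0.25, 1 and 2, 1.25 and 1.12 on day 3, 1.44 on day 4 and 1.19 and 1.53 on day 6. Only days 3 and 6 had more than 1 library in a condition and could show an overlap within a day, and there the conditions did not overlap. Over days they did overlap. The share of all genes with this pattern is not given here. The differences per day ran from 0.05 to 0.37 on the log2 scale. Spdef rose 1.46-fold in the fit (log2 0.54 ± 0.09, adjusted p = 0.000875), and under library totals by 0.26.

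Klf4 was likewise higher on all 6 days, at 0.610, 1.42 and 2.14 on days 0.25, 1 and 2, 2.40 and 3.40 on day 3, 3.41 on day 4 and 2.27 and 2.02 on day 6. It rose 1.70-fold (log2 0.77 ± 0.13, adjusted p = 0.00127; 0.49 under library totals). Foxa3 was higher on 4 of 6 days, with control levels of 0.460 to 0.924 and KPT-330 levels of 0.530 to 1.22, and its 1.32-fold rise (log2 0.40 ± 0.11, adjusted p = 0.0150) was lost without day 6 (adjusted p = 0.114) as well as under library totals.

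The other 4 members did not pass the test with TMM factors. Foxa2 was lower in level with KPT-330 on all 6 days, by 0.21 to 0.64 on the log2 scale, while its fitted value was −0.13 ± 0.09 (adjusted p = 0.251), the level being per library total and the fit per TMM-scaled total. Fitted values were 0.12 ± 0.10 for Sox9, 0.16 ± 0.07 for Foxa1 and −0.09 ± 0.13 for Gfi1, with adjusted p of 0.405, 0.0975 and 0.627. Gfi1 levels with KPT-330 ranged from 0.0306 to 0.184 with a median of 0.103, against 0.0200 to 0.217 with a median of 0.156 in controls.

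A difference of the KPT-330 effect between days 2 to 6 and days 0.25 and 1 was tested as an interaction. It was called for 0 of 9 members and 0 of 12812 genes (0%) by edgeR, with 1283 genes at an unadjusted p under 0.05, and DESeq2 called 17 genes and 0 members. The members with the smallest p were Sox12, Sox4 and Spdef, with values of −0.85 ± 0.31 for Sox4 (later days lower, unadjusted p = 0.0184, adjusted 0.432), 0.83 ± 0.29 for Sox12 (unadjusted p = 0.0128, adjusted 0.405) and 0.42 ± 0.17 for Spdef (unadjusted p = 0.0288, adjusted 0.442).

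Related genes from fixed lists moved as follows over whole libraries, in the fit where 14.4% of all genes were called higher with KPT-330 and 14.2% lower. Of 18 further secretory fate factors 17 were tested, of which 5 rose and 4 fell with KPT-330: the 4 with the smallest p were Pax4 (−2.70 ± 0.23), Neurog3 (−1.61 ± 0.19), both of the enteroendocrine branch, Elf3 (0.43 ± 0.07) and Atoh1 (0.60 ± 0.12), all log2. Their median was −0.01. Of 6 other Sox genes tested 0 rose and 4 fell, namely Sox13 (−0.60 ± 0.12), Sox17 (−2.13 ± 0.43), Sox5 (−1.07 ± 0.31) and Sox18 (−1.76 ± 0.60), with a list median of −0.84. Of 12 other Klf genes 6 rose and 0 fell, with Klf6 (0.79 ± 0.14), Klf9 (0.82 ± 0.17), Klf3 (0.42 ± 0.09) and Klf13 (0.35 ± 0.09) first, and a median of 0.40. These medians stand beside −0.00 for all genes.

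Among 18 Notch pathway genes tested 2 rose and 4 fell, against 14.4% and 14.2% of all genes, and the list median was −0.03. The fringe genes Mfng (−2.58 ± 0.27) and Lfng (−0.50 ± 0.14) and the receptor gene Notch2 (−0.66 ± 0.16) were among those that fell. Of 17 goblet and Paneth products tested 15 rose and 0 fell, led by Guca2a (0.96 ± 0.12), the Paneth protease Mmp7 (0.95 ± 0.12), Tff3 (0.72 ± 0.12) and the mucin Muc2 (0.84 ± 0.13). Several of these products are among the markers that name the cell types below, and the study drew those markers from these same samples. From day 0 to day 6, when 25.1% of all genes were called higher and 25.9% lower, the same lists gave 11 higher and 4 lower of 17 fate factors, 4 and 0 of 6 Sox genes, 5 and 2 of 12 Klf genes, 6 and 7 of 19 Notch genes, and 15 and 1 of 17 products.

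To place the members in cell types, the kept cells were clustered on variable genes from which the 9 members had been removed, and 17 clusters were named from 95 marker genes, also without the members. The types are stem I (Lgr5 and Nkd1 among its markers), stem II, stem III (cycling, with Mki67 and Top2a), early enterocyte, enterocyte, early secretory (Dll1), early Paneth, Paneth, enteroendocrine and goblet, each meant as marker-based likeness. Early Paneth and Paneth cells together are called the Paneth lineage. The goblet type held 111 cells and no untreated library had 20 of them, so it has no untreated level. The enterocyte type includes a cluster of 1343 cells whose leading 10 genes hold 2 early enterocyte markers and 1 of its own, and it was not compared between conditions.

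In untreated libraries each member was tested in each type against all other cells of the same library, a comparison that describes types built from genes that vary together with the members. Of 81 pairs of gene and type, 19 (23.5%) were called by the two-sided exact sign-flip permutation test with adjusted p under 0.05, 4 higher and 15 lower. With 4 or 5 libraries the test cannot pass in early enterocytes, early secretory, early Paneth and Paneth cells, nor can it with 6 libraries in stem I after adjustment over the 81 pairs, so that a high level in these 5 types remains a description. With 9 libraries the smallest p it can give is 0.00391. No pair was called when 50 instead of 20 cells were required or when cells were typed singly by marker score. In stem III the 50-cell rule left the values unchanged, as log2 0.42 for Sox12 and −1.37 for Spdef. Their adjusted p by this test went from 0.0352 to 0.105, so that there only the adjustment over pairs had changed. With clusters from log-normalized counts the stem II calls of Spdef, Gfi1 and Klf4 were lost (log2 0.04, −0.25 and −0.81). Their adjusted p by the same test was then 0.945, 0.520 and 0.258. Other calls were gained there, as that of Sox4 in stem II (0.71, adjusted p = 0.0402).

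The means below pool the days on which a type had enough cells, which differ between types. Paneth and early Paneth cells come from days 2 to 6, stem I cells from days 1 to 6 and early secretory cells from days 0 to 2. The folds against all other cells are on a scale with 0.1 added before logs and depend on it. In enterocytes the log2 value of Spdef was −2.57 as reported, −4.57 with 0.01 added and −0.77 with 1 added, that of Sox9 was −2.42, −2.79 and −1.17, and in enteroendocrine cells that of Foxa2 was 1.38, 1.67 and 0.52, with the call unchanged in each.

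Spdef and Gfi1 had the same 3 types at the top. Spdef was at 3.42 ± 0.73 (SD, n = 5 libraries) in early Paneth cells, 2.95 ± 0.68 (n = 4) in early secretory cells and 2.06 ± 0.28 (n = 5) in Paneth cells, and at 0.447 ± 0.27 (n = 6) or less in all others, down to 0.0218 ± 0.027 (n = 9) in enterocytes. The lowest library of the first 3 types (1.69) was above the highest of any other (0.983). Against all other cells it was lower in stem II, stem III, enterocyte and enteroendocrine cells, by 2.58-fold in stem III to 5.93-fold in enterocytes, in every library tested.

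Gfi1 was at 0.572 ± 0.22, 0.464 ± 0.30 and 0.298 ± 0.095 in early Paneth, early secretory and Paneth cells and at 0.0679 ± 0.051 or less elsewhere, with 5 UMIs in all untreated enterocytes and 4 in stem II cells. With each cell thinned to 2000 UMIs, a Gfi1 UMI was found in 7.21% of 2675 untreated Paneth lineage cells (Wilson 95% interval 6.29 to 8.26, counting error only) and in 0.301% of 998 enterocytes (0.102 to 0.880), and a Spdef UMI in 34.4% and 0.1002%, at median depths of 5195 and 8017 UMIs before thinning, with 85 and 0 shallower cells left out. Unthinned, 62.1% of the Paneth lineage cells held a Spdef UMI. The enterocyte shares are taken as background.

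Klf4 was also high in the 3 secretory types of goblet and Paneth direction, at 3.72 ± 0.49 in early Paneth, 3.26 ± 0.62 in Paneth and 2.94 ± 1.0 in early secretory cells, and at 0.348 ± 0.098 (stem II) to 0.791 ± 0.26 (enterocytes) elsewhere. It was the 1 member not called lower in enterocytes (adjusted p = 0.0603, exact permutation test), and was lower in stem II (2.87-fold) and enteroendocrine cells (2.01-fold), in 8 of 8 libraries each. Goblet cells have no untreated level. In the KPT-330 libraries of days 2 and 4 they had Klf4 at 9.17 (33 cells, 235 UMIs) and 9.45 (21 cells, 57 UMIs). Early Paneth cells of these libraries were at 4.41 and 4.55 and Paneth cells at 4.70 and 4.53.

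The forkhead genes differed in place. Foxa2 was highest in enteroendocrine cells, at 0.777 ± 0.15 (n = 8), 2.59-fold above all other cells and higher in 8 of 8 libraries, followed by early secretory cells at 0.521 ± 0.12. Foxa3 was at 1.32 ± 0.50 in early secretory, 1.24 ± 0.37 in early Paneth, 1.11 ± 0.14 in Paneth and 1.08 ± 0.091 in stem I cells. These 4 types shared too few untreated libraries for a test to tell neighbours in this order apart. Foxa1 was the most even, from 0.901 ± 0.24 in stem I to 0.355 ± 0.11 in early enterocytes, with 0.196 ± 0.074 in enterocytes, and its call in stem III (1.196-fold, 8 of 9 libraries) lay at the threshold.

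Among the Sox genes, Sox4 was at 16.9 ± 8.4 (n = 8) in enteroendocrine, 14.7 ± 2.4 in stem I and 12.8 ± 4.2 in early secretory cells, with enteroendocrine cells 2.53-fold above all others in 8 of 8 libraries. The order of enteroendocrine and stem I cells turned with day: within 1 control library they were at 34.1 and 17.3 at day 1 and 21.3 and 13.1 at day 2, near each other at day 3 (12.99 and 11.9), and at 12.6 and 17.3 at day 4, 9.68 and 15.5 in the first day 6 control and 7.57 and 12.8 in the second. Early Paneth and Paneth cells (days 2 to 6) were at 3.62 ± 0.91 and 3.22 ± 1.4, and the lowest early secretory value (7.04, from days 0 to 2) exceeded the highest of either (5.49). The 3 types shared only the day 2 control, where early secretory cells were at 12.5, early Paneth cells at 5.01 and Paneth cells at 5.49. In the other libraries type and day cannot be told apart. Sox9 was highest in stem I (3.38 ± 0.59), with early Paneth at 2.85 ± 0.77, Paneth at 2.25 ± 0.70 and enteroendocrine cells at 2.099 ± 0.82, and 5.34-fold lower in enterocytes than in other cells in 9 of 9 libraries. In the controls of days 4 and 6 Sox9 was higher in enteroendocrine cells (3.14, 2.65 and 2.56) than in Paneth cells (2.49, 1.82 and 1.40), and at days 2 and 3 lower (2.66 and 2.19 against 3.23 and 2.32). Sox12 was at 0.293 to 0.332 in stem I, stem II, stem III, enteroendocrine and early secretory cells and at 0.108 ± 0.025 in Paneth cells, and was called higher in stem III alone (1.34-fold, 8 of 9 libraries).

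Of 60 neighbouring pairs of types that shared libraries, 0 had an adjusted p under 0.05 and 2 an unadjusted one (exact sign-flip permutation tests), the smallest adjusted p being 0.234. Even with 9 shared libraries, where the smallest possible p is 0.00391, a single pair could not pass after adjustment over 60 pairs. The count of 0 therefore does not show that neighbours are alike.

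**Figure D2:**
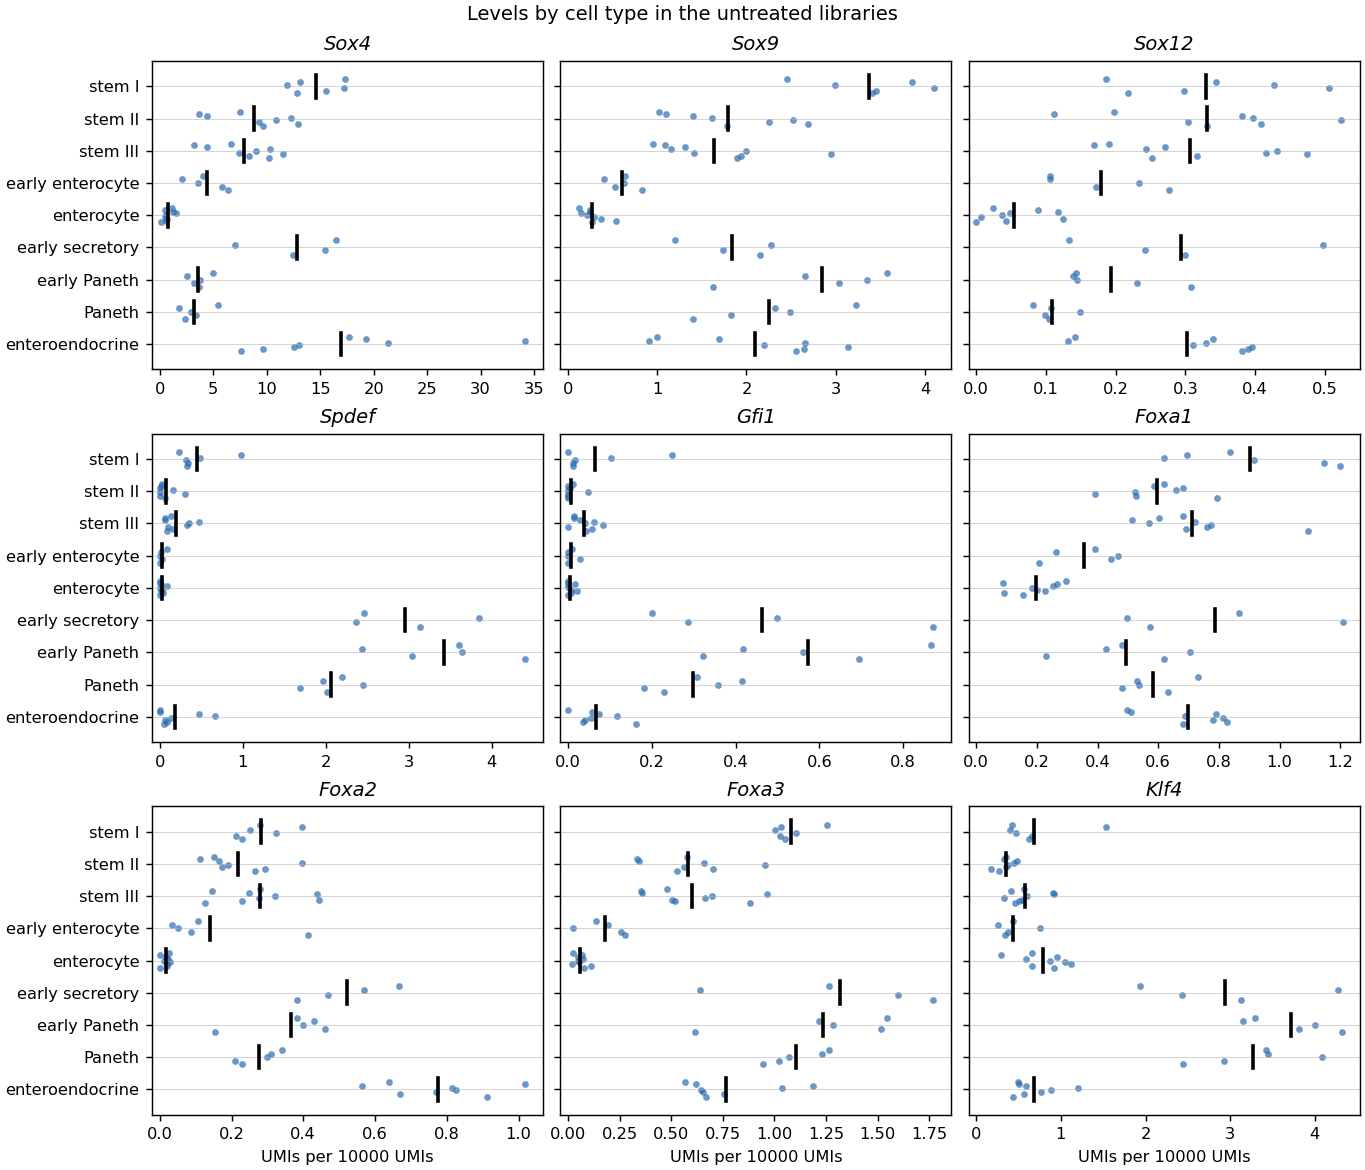
Levels of the 9 genes in untreated libraries by cell type (vertical axis) in UMIs per 10000 UMIs (horizontal axis, own range for each gene). Points are libraries with at least 20 cells of the type and bars are means; Spdef, Gfi1 and Klf4 stand highest in early secretory, early Paneth and Paneth cells, Foxa2 in enteroendocrine cells (mean 0.777), Sox4 in enteroendocrine and stem I cells (means 16.9 and 14.7), and all but Klf4 are lowest in enterocytes.

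The mix of types differed between conditions. The Paneth lineage made up 48.5% of cells at day 6 in controls and 66.4% with KPT-330, and 43.1% and 63.2% at day 4, and stem I cells made up 29.99% and 9.90% at day 4. Enteroendocrine cells were 17.2% and 5.67% at day 2. At day 6 they were 20.7% and 19.9% in the 2 controls and 7.10% and 23.3% in the 2 KPT-330 libraries, which lie on both sides of the controls. When the control level of each type was weighted by the KPT-330 mix of the same day, the expected level of Sox4 moved by a median of −0.57 on the log2 scale over 6 days and the measured KPT-330 level lay a median of −0.07 from it, from −0.86 to 0.35 over days and below on 4 of 6. For Sox12 the mix gave −0.45 and the measured level lay −0.72 below that, on 6 of 6 days. For Spdef these values were 0.24 and 0.03, for Klf4 0.27 and 0.24, for Foxa3 −0.10 and 0.14, and for Gfi1 0.24 and −0.64. Over days the second value ran from −0.20 to 0.18 for Spdef, −0.03 to 0.58 for Klf4, −0.03 to 0.59 for Foxa3 and −0.93 to 0.42 for Gfi1. The measured level lay above the mix on 4, 5, 4 and 2 of 6 days in this order. These are descriptions without a test.

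Within types, 5 of the pairs of member and type tested changed with KPT-330, counting stem I, II and III, early secretory, early enterocyte, enteroendocrine and Paneth lineage cells. In the Paneth lineage (13 libraries, 6.69% of genes called) Gfi1 fell and Foxa3 and Klf4 rose, in enteroendocrine cells (13 libraries, 2.04% of genes called) Klf4 rose, and in stem II cells (6 libraries of days 0.25, 1 and 2, 1.08% called) Sox12 fell. No member was called in stem I, stem III, early secretory or early enterocyte cells, where 4.38%, 0.415%, 0.496% and 0.391% of all genes were called. Alternatives added calls there: with cells typed by marker score Sox4 was called in early enterocytes (−0.60, adjusted p = 0.0316), Foxa3 in stem I (0.51, adjusted p = 0.0489) and Sox12 in stem III (−1.54, adjusted p = 0.0452), and without day 3 Sox12 and Spdef were called in stem III (−1.40 and 1.08, adjusted p of 0.0304 and 0.0117). In the 2 parts of the Paneth lineage taken singly, Klf4 was called higher in early Paneth cells (0.52, adjusted p = 0.0441, 3.3% of genes called) and Foxa3 in Paneth cells (0.46, adjusted p = 0.0169, 3.99% called). The count is not stable: it was 2 without day 4, 3 without day 1, without day 6 or under library totals, 8 without the first day 3 KPT-330 library, and 10 without the filter on low counts. The clusters inside a type also shifted, with 1 of the 2 Paneth clusters holding 43.5% of Paneth cells in controls and 63.2% with KPT-330. For 1 of the 2 enteroendocrine clusters, led by hormone genes, these shares were 43.3% and 61.4%. A stem III cluster with early secretory as its second marker score held 9.37% and 31.8% of stem III cells. A stem I cluster with early Paneth as its second score held 8.68% and 17.4% of stem I cells. The part of these shifts in the values was not tested.

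Gfi1 in the Paneth lineage was at 0.540 (10 UMIs), 0.668, 0.417, 0.392, 0.186 and 0.257 in the controls of days 1, 2, 3, 4 and 6, and at 0.0786 (1 UMI), 0.494, 0.190 and 0.320, 0.211, 0.0773 and 0.138 with KPT-330. It was lower with KPT-330 on each of the 5 days, and the fall was 1.57-fold (log2 −0.65 ± 0.16, adjusted p = 0.0199), also under library totals. Without day 4 or without day 6 the adjusted p was 0.0720 in both fits. In early Paneth cells and in Paneth cells taken singly Gfi1 was not called. The share of early Paneth cells in the pool differed between libraries, and its part in the fall was not tested. Over whole libraries, where the Paneth lineage share was higher with KPT-330, the same gene had no call.

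Klf4 in the Paneth lineage was at 3.19, 3.34, 3.34, 4.07, 2.95 and 2.56 in these controls and at 5.03, 4.48, 3.78 and 6.21, 4.53, 2.67 and 2.50 with KPT-330. The conditions overlapped at day 6, and the rise of 0.42 ± 0.12 (adjusted p = 0.0450) was lost under library totals (0.26, adjusted p = 0.200), without any 1 of days 1, 2, 3 and 4 (adjusted p of 0.0984, 0.142, 0.106 and 0.127), and without the second day 3 KPT-330, the second day 6 control or the first day 6 KPT-330 library (0.0752, 0.0750 and 0.0589). Foxa3 in the Paneth lineage was at 0.924 to 1.67 in controls and 1.01 to 1.88 with KPT-330, lower with KPT-330 on days 1 and 2, and its rise of 0.38 ± 0.10 (adjusted p = 0.0264) was also lost under library totals (adjusted p = 0.179), without day 3, 4 or 6 (0.120, 0.133 and 0.0919) and without the second day 6 control (0.0646).

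In enteroendocrine cells Klf4 was at 0.583, 1.199, 0.882, 0.770, 0.569 and 0.435 in the controls of days 1, 2, 3, 4 and 6 and at 1.77, 1.91, 1.98 and 1.34, 1.19, 0.853 and 0.578 with KPT-330. Every KPT-330 library was above the controls of its day. The rise was 1.79-fold (log2 0.84 ± 0.17, adjusted p = 0.00980) and kept its call in all alternatives in which it could be fitted.

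Sox12 in stem II cells was at 0.197, 0.397 and 0.524 in the controls of days 0.25, 1 and 2 (30, 32 and 11 UMIs) and at 0.0493, 0.159 and 0.284 with KPT-330 (9, 9 and 4 UMIs), a 2.88-fold fall (log2 −1.53 ± 0.38, adjusted p = 0.0205) on 2 residual degrees of freedom. The call was lost with DESeq2 (adjusted p = 1.00), without day 0.25 (0.345), without day 1 (0.151) and with cells typed by marker score (0.0777). In stem III cells the value was −1.52 ± 0.34 (adjusted p = 0.0639), in stem I −0.62 ± 0.22, in enteroendocrine cells −0.43 ± 0.19 and in the Paneth lineage −0.36 ± 0.21, none past the threshold.

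Sox4, in contrast with its fall over whole libraries, had a value of 0.09 ± 0.13 in stem I cells (adjusted p = 0.83), where its level was 11.9 to 17.3 in 6 controls and 12.4 to 18.0 in 6 KPT-330 libraries and the groups overlapped. In the Paneth lineage it was −0.51 ± 0.24 (adjusted p = 0.25), with 1 KPT-330 library standing apart: the first day 3 library was at 4.20 and the second at 1.34, against 2.101 in the control, and without the first the fall of 0.73 was called (adjusted p = 0.00113). The difference between whole libraries and types was not tested. Spdef within the Paneth lineage was at 0.10 ± 0.09 (adjusted p = 0.61), with control levels of 1.74 to 3.10 and KPT-330 levels of 1.55 to 3.00. In enteroendocrine cells Spdef was at 1.05 ± 0.41 (adjusted p = 0.23), and the first day 3 KPT-330 library (0.974) stood apart from the second (0.0877) there too.

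**Figure D3:**
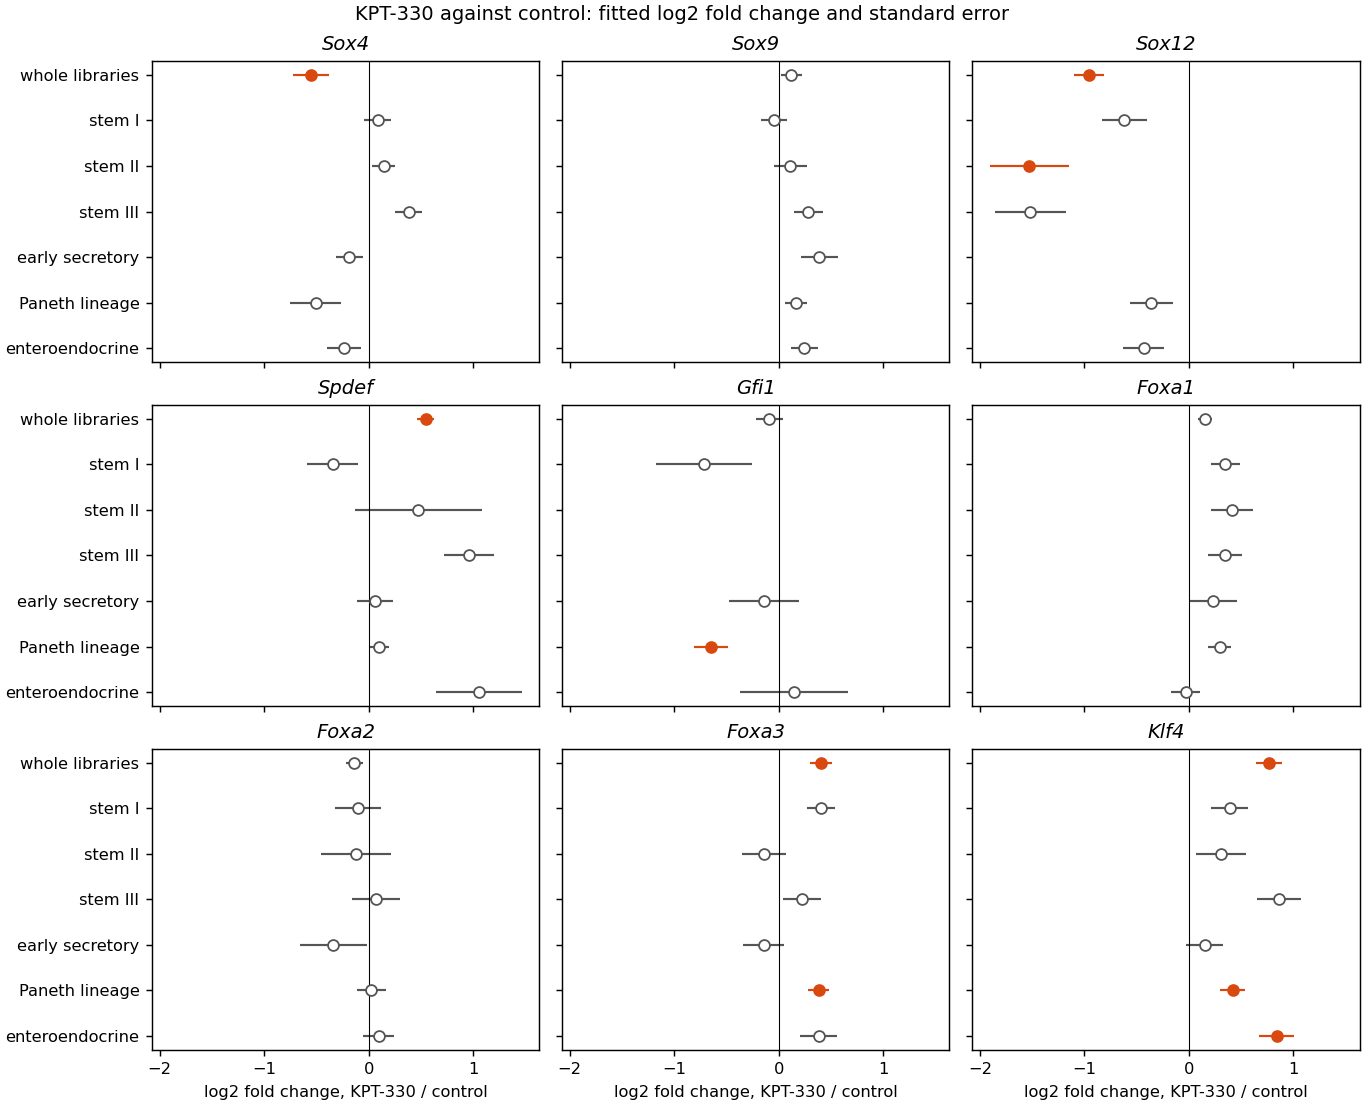
Fitted log2 fold change of KPT-330 against control (horizontal axis) with its standard error, for whole libraries and 6 cell types (vertical axis); types in which a gene was below the filter have no point, and early enterocytes (4 libraries) are not drawn. Filled points have an adjusted p under 0.05: 5 over whole libraries and 5 within types.

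**Figure D4:**
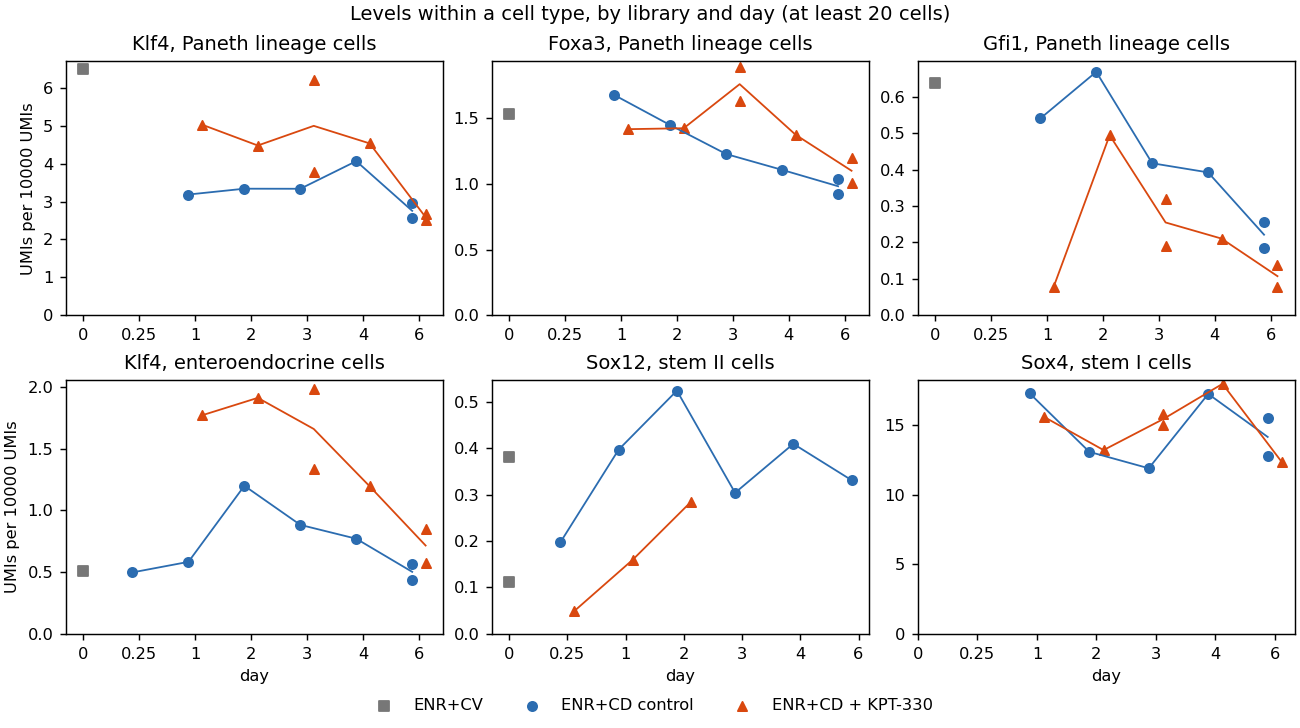
Levels (vertical axis, UMIs per 10000 UMIs of the cells of a type) by day (horizontal axis, evenly spaced) for the 5 called pairs of gene and cell type and for Sox4 in stem I cells. Each symbol is a library with at least 20 cells of the type and lines join day means; Klf4 in enteroendocrine cells is above control on each shared day, and Sox4 in stem I cells overlaps (11.9 to 17.3 in controls, 12.4 to 18.0 with KPT-330).

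For each member the 3 genes most alike over the 17 libraries were found by Pearson's correlation of log2 levels among 12971 genes, as a description over points that share day, treatment and cell mix. Spdef was most like Fndc3a (r = 0.988), the stress sensor gene Ern2 (0.985) and the receptor gene Kit (0.984), and Foxa3 was most like Kit (0.943), Spdef (0.938) and Fndc3a (0.935). Sox4 was closest to Clca1 (0.957), Mex3a (0.953) and Lfng (0.930), Sox9 to Sytl1 (0.942), Zfp503 (0.940) and Nkd1 (0.937), and Klf4 to the Golgi trafficking genes Arfgap3 (0.960) and Arf4 (0.949) and to H13 (0.948). Gfi1 was closest to Slc41a1 (0.965), Calcoco1 (0.964) and Pink1 (0.964). The closest genes of Sox12 (Brpf1, 0.910, Efcab5, 0.901, and Epb4.1, 0.893), Foxa2 (Zmym5, 0.915, Mau2, 0.903, and Ing4, 0.900) and Foxa1 (Bivm, 0.824, Cdc42bpb, 0.808, and Fbxw11, 0.796) reached lower values.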

How the data were processed

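Whole-number UMI counts per gene and cell were deposited without normalization. The authors demultiplexed with bcl2fastq, aligned to mm10 with STAR, collapsed reads by UMI with the Drop-seq pipeline (version not printed here, since the sources differ), and kept cells after filters on genes, UMIs, mitochondrial share and doublets. Those 19877 cells, of 26229 barcodes, were used with 0 value columns left out. Groups came from the labels.

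Cells were clustered with Seurat 5.3.0 and sctransform 0.4.2 in R 4.3.3 (3000 variable genes less the 9 members, 9 components, resolution 0.45, and 1743 secretory cells again). Counts summed per library, or per library and type with at least 20 cells, were tested in edgeR 4.0.16 (TMM, filterByExpr, quasi-likelihood, Benjamini-Hochberg over all genes, threshold 0.05), and DESeq2 1.42.0 was an alternative. SEs are the fitted log2 fold change over the root of F. Type levels used two-sided exact sign-flip permutation tests with 0.1 added before logs. The tests were checked on simulated data.

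The members, lists and tests were chosen with earlier results of these data known. Named genes are the 9 members, the 4 called genes of each list with the smallest p (1 of them is not reported here), and the 3 genes most alike each member. Gene positions are from the GENCODE M21 annotation of mm10. The labels do not say whether libraries of a group came from separate cultures, so p-values measure the spread between libraries, which may be technical. Library pairs of a group differed by far more than counting noise (chi-square per degree of freedom of 11.9 to 34.3).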

Additional observations from a re-analysis of the deposited data

How the results depend on the processing

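Most days had 1 library per condition, so a KPT-330 effect of a single day cannot be separated from a difference between libraries, and cells carried few molecules of Sox12 and Gfi1. Alternatives with library totals, without days 0.25 and 1 together, without the first day 0 library and days 0.25 and 1, and without shared barcodes were chosen after seeing the data. Causes of the changes below were not tested.

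Over whole libraries 5 members were called with KPT-330, 4 or 5 when 1 replicate was left out, and 3 without day 6. All genes called fell from 3661 to 2092 without day 3 and 2420 without day 4. The count of members called over days was 7 to 9 and that of the interaction was 0 in all alternatives. Within types the 5 called pairs became 4 to 8 when 1 replicate was left out, 10 without the filter, 3 without day 1, 2 without day 4, 3 without day 6 and 3 with library totals. Levels across types gave 19 calls, and 0 both with types from marker scores and with at least 50 cells. Under the latter rule the stem III values themselves did not change. The stem II calls of Spdef, Gfi1 and Klf4 were lost with log-normalized clusters. The share of untreated Paneth lineage cells with a Spdef UMI moved from 34.4% to 19.5% at 1000 UMIs and 62.1% without thinning.

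The replicate numbers 1 and 2 occur in both conditions at day 6 only, and the labels do not say what they mark. Deviations of same-numbered day 6 libraries correlated at 0.403 over 12812 genes. With a replicate block 5 members were called over whole libraries, 0 in the interaction, 8 over days and 9 pairs within types.

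Sign changes were as follows. They concern log2 values that had no call as reported, except the stem II level of Spdef, which was called (−2.08) and turned with log-normalized clusters. With library totals they were Sox9 −0.153, Foxa1 −0.113, the interaction of Foxa2 −0.216, Sox12 at day 6 −0.0839, early Paneth Sox9 −0.114 and Foxa2 −0.0513, Paneth Sox9 −0.00826, Spdef −0.0852 and Foxa2 −0.126, Paneth lineage Spdef −0.0596 and Foxa2 −0.137, and early enterocyte Foxa3 −0.0210. Sox12 at day 6 was also −0.0569 in untreated libraries only and −0.306 without the first day 0 library and days 0.25 and 1. With DESeq2 they were early secretory Spdef −0.0131 and Gfi1 0.0200, early enterocyte Foxa3 −0.0460 and enteroendocrine Gfi1 −0.224. With at least 50 cells they were stem II Foxa3 0.00814, stem III Foxa2 −0.00261 and the enteroendocrine level of Foxa3 −0.0565, and with the replicate block stem III Foxa2 −0.00219. With types from marker scores they were stem I Sox9 0.0890, stem II Spdef −0.416 and Foxa3 0.0937, early secretory Foxa2 0.0615 and Foxa3 0.0235, early Paneth Spdef −0.0244, Paneth Foxa2 −0.133, Paneth lineage Foxa2 −0.0726, early enterocyte Foxa1 −0.00518 and Foxa3 −0.183, and enteroendocrine Foxa2 −0.0248, and for levels early secretory Sox4 −0.0558 and Sox12 −0.227, stem III Sox9 −0.0506, early Paneth Foxa2 −0.00768, stem II Foxa3 0.0959 and enteroendocrine Foxa3 −0.194. With log-normalized clusters the levels were stem II Spdef 0.0405, Foxa2 0.186 and Foxa3 0.211 and early Paneth Foxa1 0.0640, and with 1 added the level of stem III Sox9 was −0.00801. Without day 0.25 stem II Sox9 was −0.0236. Without day 1 they were stem II Foxa2 0.0427, early secretory Klf4 −0.272 and enteroendocrine Foxa1 0.0161, the last also 0.0161 without days 0.25 and 1 together and 0.00365 without day 4. Without day 2 they were stem I Foxa2 0.175, stem II Foxa3 0.00814, early secretory Spdef −0.204, Gfi1 0.668 and Foxa3 0.167, early Paneth Foxa2 −0.0108, Paneth Foxa2 −0.0258 and Paneth lineage Foxa2 −0.0523. Without day 3 they were stem I Sox4 −0.0363, stem III Foxa2 −0.00261, early Paneth Sox9 −0.0827, Paneth Foxa2 −0.159 and Paneth lineage Foxa2 −0.112. With 1 replicate left out, values ran from −0.256 to 0.621 for Sox12 at day 6, −0.00261 to 0.0714 for stem III Foxa2, −0.00923 to 0.158 for early Paneth Sox9, −0.153 to 0.00210 for stem I Sox9, −0.00930 to 0.123 for Paneth Foxa2, −0.0278 to 0.0974 for Paneth lineage Foxa2 and −0.0617 to 0.00993 for enteroendocrine Foxa1.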
